A study of Macaca mulatta with 8 samples.

Results

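The loci of 6 transcription factor genes used to mark upper-layer neurons of the cerebral cortex, CUX1, CUX2, POU3F2, POU3F3, RORB and MEF2C, were described in the open chromatin of developing rhesus macaque cortex cells. A locus was the gene body and 5000 bp upstream of it in the NCBI annotation of the Mmul_10 assembly, and its members were all merged regions there that held a peak of at least 1 stage. The 6 loci, of 21122 protein-coding genes, held 46 of 72358 such regions. ATAC-seq, an assay in which a transposase inserts sequencing adapters into accessible DNA, was applied to cells of embryos at post-conceptional days 50, 60, 80 and 85, here E50, E60, E80 and E85. The primary cells came from frozen cortex and were grown after dissociation in a medium that enriches progenitors. All 4 stages shared this handling. Each stage was 1 culture, from which 2 technical libraries were made, and the deposited peak calls are per stage. Differences between stages therefore have no replicate check, no test was possible, and the values below describe these 4 peak sets. Exact Clopper-Pearson 95% intervals cover counting error only.

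Upper-layer neurons are the late-born excitatory neurons of the cortical plate, and most connect areas of the cortex with each other. CUX1 and CUX2 are homeodomain proteins that, in mice, mark upper-layer neurons and shape their dendrites and synapses. POU3F2 and POU3F3 are POU-domain proteins that act together in mice in the production and migration of these neurons and are also present in their progenitors. RORB is a nuclear receptor that marks neurons of the middle, thalamus-receiving layer, and MEF2C is a MADS-box factor of neuron differentiation and synapse formation.

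The stretches below were taken from the Mmul_10 genome of NCBI, the assembly that rheMac10 names, and are printed 5′ to 3′. Regions are numbered within each locus in the direction of transcription. Capitals mark matches, on either strand, to the motifs listed with the motif counts further on. The first set shows the centres of 2 intronic CUX2 regions, because no region lay at a CUX2 start and the gene's open chromatin was intronic. Region 1 (chr11:110836332-110836630, plus strand) was called at E60 alone, and region 4 (chr11:110924275-110924573, plus strand) at E60, E80 and E85. In region 4 the AP-1 match and the CAGATG E-box match overlap.
CUX2 region 1: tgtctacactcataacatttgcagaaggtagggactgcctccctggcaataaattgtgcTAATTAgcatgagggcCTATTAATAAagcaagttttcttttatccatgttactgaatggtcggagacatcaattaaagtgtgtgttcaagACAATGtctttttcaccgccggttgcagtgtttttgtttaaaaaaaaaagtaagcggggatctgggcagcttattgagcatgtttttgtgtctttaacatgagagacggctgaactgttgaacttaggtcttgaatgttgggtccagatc
CUX2 region 4: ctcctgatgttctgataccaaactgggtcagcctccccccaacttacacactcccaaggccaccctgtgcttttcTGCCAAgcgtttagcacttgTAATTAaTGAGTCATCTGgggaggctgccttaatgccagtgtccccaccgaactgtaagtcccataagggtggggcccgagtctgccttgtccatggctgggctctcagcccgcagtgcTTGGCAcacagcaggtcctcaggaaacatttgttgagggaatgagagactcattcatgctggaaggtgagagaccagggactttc

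The second set shows 2 CUX1 regions with different stages. Region 8 (printed as chr3:44099362-44099660, plus strand) was called at E60 alone and region 25 (chr3:44432419-44432717, plus strand) at all 4 stages. The called region 8 is 234 bp (chr3:44099395-44099628), so the printed stretch holds flanking bases on both sides. In region 8 the MEF2 and homeobox matches overlap.
CUX1 region 8: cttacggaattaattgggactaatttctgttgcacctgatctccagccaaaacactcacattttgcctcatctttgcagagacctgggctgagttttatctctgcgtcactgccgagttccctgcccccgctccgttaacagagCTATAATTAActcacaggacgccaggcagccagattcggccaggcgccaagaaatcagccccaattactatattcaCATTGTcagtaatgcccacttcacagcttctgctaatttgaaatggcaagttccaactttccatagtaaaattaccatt
CUX1 region 25: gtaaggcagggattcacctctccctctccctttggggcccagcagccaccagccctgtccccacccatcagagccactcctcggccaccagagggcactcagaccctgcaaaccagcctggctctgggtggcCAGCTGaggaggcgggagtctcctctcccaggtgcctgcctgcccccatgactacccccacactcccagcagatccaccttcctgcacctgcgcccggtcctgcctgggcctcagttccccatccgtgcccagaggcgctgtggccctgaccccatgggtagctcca

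The third set is the only MEF2C region called at all 4 stages, an intronic stretch (chr6:85679571-85679869, plus strand) with 3 matches to the MEF2 motif.
MEF2C region 4: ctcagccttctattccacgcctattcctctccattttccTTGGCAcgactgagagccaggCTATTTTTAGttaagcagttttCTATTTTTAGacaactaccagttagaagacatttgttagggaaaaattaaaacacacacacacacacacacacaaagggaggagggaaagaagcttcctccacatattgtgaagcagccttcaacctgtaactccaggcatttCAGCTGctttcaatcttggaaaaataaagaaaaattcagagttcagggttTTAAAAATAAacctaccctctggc

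The fourth set compares promoters, from 250 bp upstream of an annotated start and with the first 30 bases downstream. That of CUX2 (chr11:110758384-110758663, plus strand) belongs to the start with most transcripts, 4 of 7, and was not called. That of RORB (chr15:89924593-89924872, plus strand) was called at E60, E80 and E85, and that of POU3F2 (chr4:74450308-74450587, minus strand) at all 4 stages. The CUX2 stretch had 53.2% GC and 11 CpG dinucleotides, against 70.4% and 24 in RORB and 67.9% and 21 in POU3F2. The CUX2 start used is an inner one, at 110758634, and the first start of the gene is at 110692511. RORB and POU3F2 have 1 annotated start each, so the stretches are not alike in position. GC at the other CUX2 starts was not measured.
CUX2 promoter: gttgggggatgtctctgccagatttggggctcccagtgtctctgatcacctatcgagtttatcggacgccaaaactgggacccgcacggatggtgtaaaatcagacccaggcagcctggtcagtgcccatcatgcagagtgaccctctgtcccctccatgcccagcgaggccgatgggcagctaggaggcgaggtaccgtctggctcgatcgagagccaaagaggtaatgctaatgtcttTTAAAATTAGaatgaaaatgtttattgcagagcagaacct
RORB promoter: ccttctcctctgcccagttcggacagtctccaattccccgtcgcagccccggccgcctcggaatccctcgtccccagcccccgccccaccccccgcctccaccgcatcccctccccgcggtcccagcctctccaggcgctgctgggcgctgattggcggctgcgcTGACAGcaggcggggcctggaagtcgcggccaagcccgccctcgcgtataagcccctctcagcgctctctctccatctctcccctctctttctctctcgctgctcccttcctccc
POU3F2 promoter: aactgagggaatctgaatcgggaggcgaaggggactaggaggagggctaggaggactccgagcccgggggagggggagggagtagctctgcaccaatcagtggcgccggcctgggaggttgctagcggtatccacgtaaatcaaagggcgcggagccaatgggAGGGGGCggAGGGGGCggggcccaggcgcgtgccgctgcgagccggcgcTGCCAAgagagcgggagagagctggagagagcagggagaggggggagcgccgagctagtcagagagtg

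Nearly all regions of the 6 loci were called at E60, and fewer at E80. The E50 set held 7 (15.2%) of the 46 regions, the E60 set 44 (95.7%), the E80 set 32 (69.6%) and the E85 set 14 (30.4%). Over all regions with a stage peak the shares were 26.0%, 82.8%, 80.3% and 40.1% in the same order of stages. The 6 loci thus lay above the background at E60 and below it at the other 3 stages. Exact intervals for 7 and 14 of 46 are 6.34 to 28.9 and 17.7 to 45.8, and they hold the backgrounds at E50 and E85. For the shares at E60 and E80 no interval was computed. Of the 46 regions, 8 (17.4%) were promoters, meaning at most 1000 bp from a start that the annotation gives to a protein-coding or lncRNA transcript, against 23.2% of all regions. The other 38 are called distal. Of those, the E50 set held 5 (13.2%), the E60 set 36 (94.7%), the E80 set 24 (63.2%) and the E85 set 10 (26.3%), where the shares over all distal regions were 17.7%, 79.4%, 77.4% and 31.7%. In a bulk assay, fewer cells with an open region and less openness per cell cannot be told apart.

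**Figure D1:**
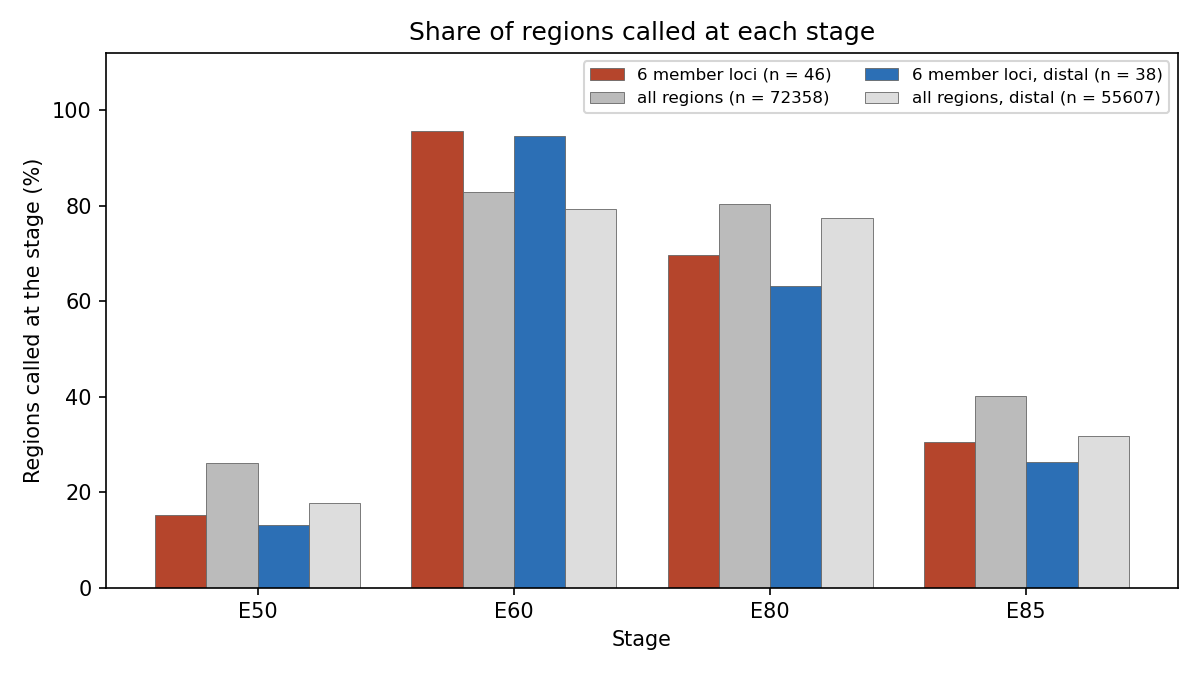
Share of regions called at each stage (percent, vertical axis) for the 6 loci and for all regions with a stage peak, for regions of any kind and for distal regions. The bars of the 6 loci stand above those of all regions at E60, where 95.7% of their regions were called, and below them at E50, E80 and E85. For regions of any kind, the differences at E50 and E85 are within counting error.

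The most frequent pattern was a call at E60 and E80 alone, with 17 of 46 regions (37.0%, against 29.4% of all regions). Calls at E60 alone followed with 13 (28.3%, against 16.4%), then at E60, E80 and E85 with 7 (15.2%, against 12.1%) and at all 4 stages with 6 (13%, against 23.5%). Calls at E80 alone made up 2 regions (4.35%, against 13.3%), both in CUX1. The last region, in CUX1, was called at E50, E60 and E85 but not at E80, a pattern of 0.361% of all regions. No region of the 6 loci was called at E50 alone or at E85 alone, patterns that were also rare over all regions (0.315% and 1.34%).

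**Figure D2:**
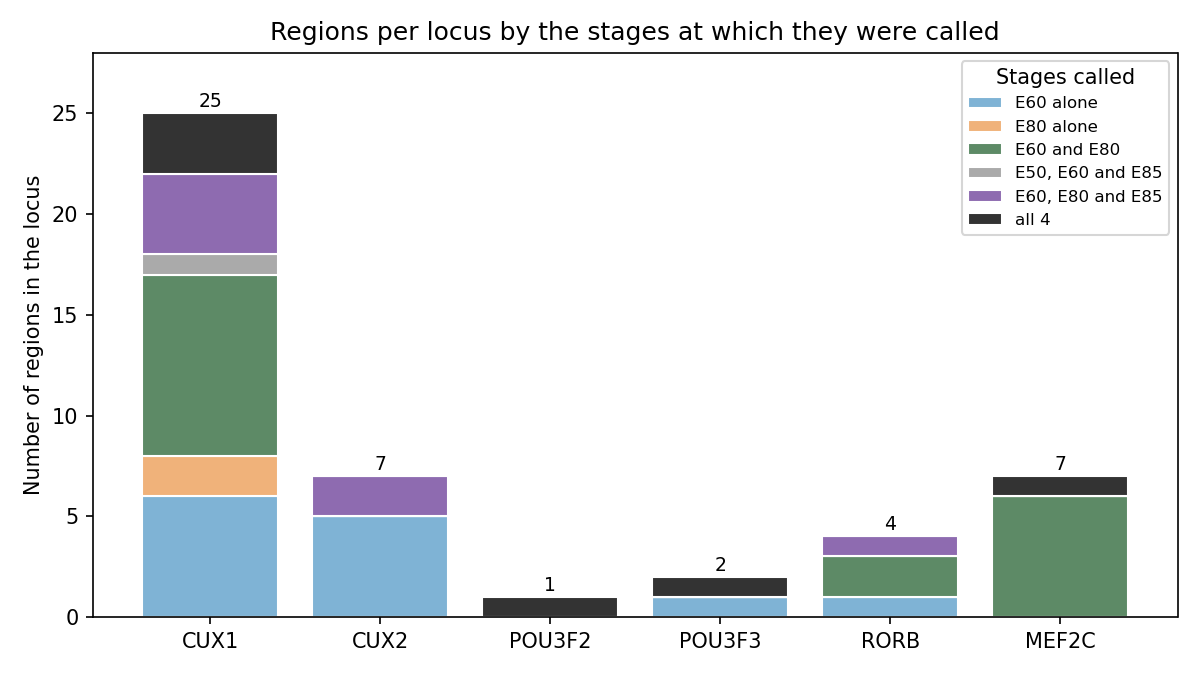
Number of regions in each of the 6 loci (vertical axis), with bars split by the stages at which the regions were called and the total above each bar. Calls at E80 alone appear only in CUX1, all MEF2C regions were called at both E80 and E60, and 5 of the 7 CUX2 regions were called at E60 alone.

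CUX1 (NCBI gene 574390, chr3:43963772-44436863, plus strand) had the most regions of the 6. Its 478 kb locus held 25 regions, a number reached by 110 protein-coding loci, where the median over loci with a region is 2. Per 100 kb of locus it had 5.23 regions, against 2.14 in CUX2, 2.05 in RORB and 3.70 in MEF2C, and the short POU3F2 and POU3F3 loci had 10.7 and 20.7. The E50 set held 4 of the 25, the E60 set 23, the E80 set 18 and the E85 set 8. By pattern, 9 were called at E60 and E80 alone, 6 at E60 alone, 2 at E80 alone, 4 at E60, E80 and E85, 3 at all 4 stages and 1 at E50, E60 and E85. The cluster of starts at the 5′ end lay in, or up to 187 bp from, 2 adjacent promoter regions. Region 2 (chr3:43963087-43964418, 1332 bp) was called at E60, E80 and E85, and region 3 (chr3:43964584-43965007, 424 bp) at E60 and E80, with 165 bp between them. No promoter region of CUX1 was called at E50. The 3 annotated starts inside the gene, at 44064115, 44064654 and 44109985, had no region within 1000 bp at any stage, and the nearest region lay between 10357 and 11202 bp away.

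The regions called at all 4 stages lay in the introns of CUX1. Region 13 (chr3:44232235-44233531, 1297 bp) is in intron 4 of the transcript with the longest span, region 24 (chr3:44424905-44425385) in intron 14 and region 25 (chr3:44432357-44432779) in intron 18. Region 23 (chr3:44422990-44423633), which E80 lacked, lies 1271 bp before region 24. The 4 CUX1 regions called at E50 were these 4, all of them distal, and 3 of them lay near the 3′ end of the gene, 459.5, 461.4 and 468.8 kb from its first start. The starts nearest to these 3 belong to other genes. A start of LOC106997589 lies 5852 bp from region 23 and 7767 bp from region 24. A start of SH2B2 lies 4672 bp from region 25. Their nearest CUX1 starts are 313005 to 322372 bp away, and which gene these regions act on was not tested. Of the 2 regions called at E80 alone, region 5 (chr3:44038553-44038826, intron 1) was 274 bp wide. Neither of the 2 held a lifted peak, a peak carried over from a set that the labels do not define, while 37 of the 46 regions (80.4%) did, against 63.3% of all regions.

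CUX2 (NCBI gene 712795, chr11:110692511-111013978, plus strand) differed from its paralog CUX1 in having no called promoter. Its 326 kb locus held 7 regions, and all were distal and intronic. The E50 set held none of them, the E60 set 7, and the E80 and E85 sets 2 each. Regions 1, 2, 3, 5 and 6 were called at E60 alone, and regions 4 and 7 at E60, E80 and E85. The 7 regions lay between 144.0 and 284.9 kb downstream of the first start, 3 of them in intron 1. The nearest region to any of the 4 annotated CUX2 starts was 9499 bp upstream of the first one (chr11:110682812-110683012, 201 bp, E60 alone), outside the locus, and that to the start with most transcripts was 75622 bp away. Of all protein-coding genes, 6990 (33.1%) likewise had no promoter call at any stage. A region not called may have been open below the threshold of the peak caller.

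**Figure D3:**
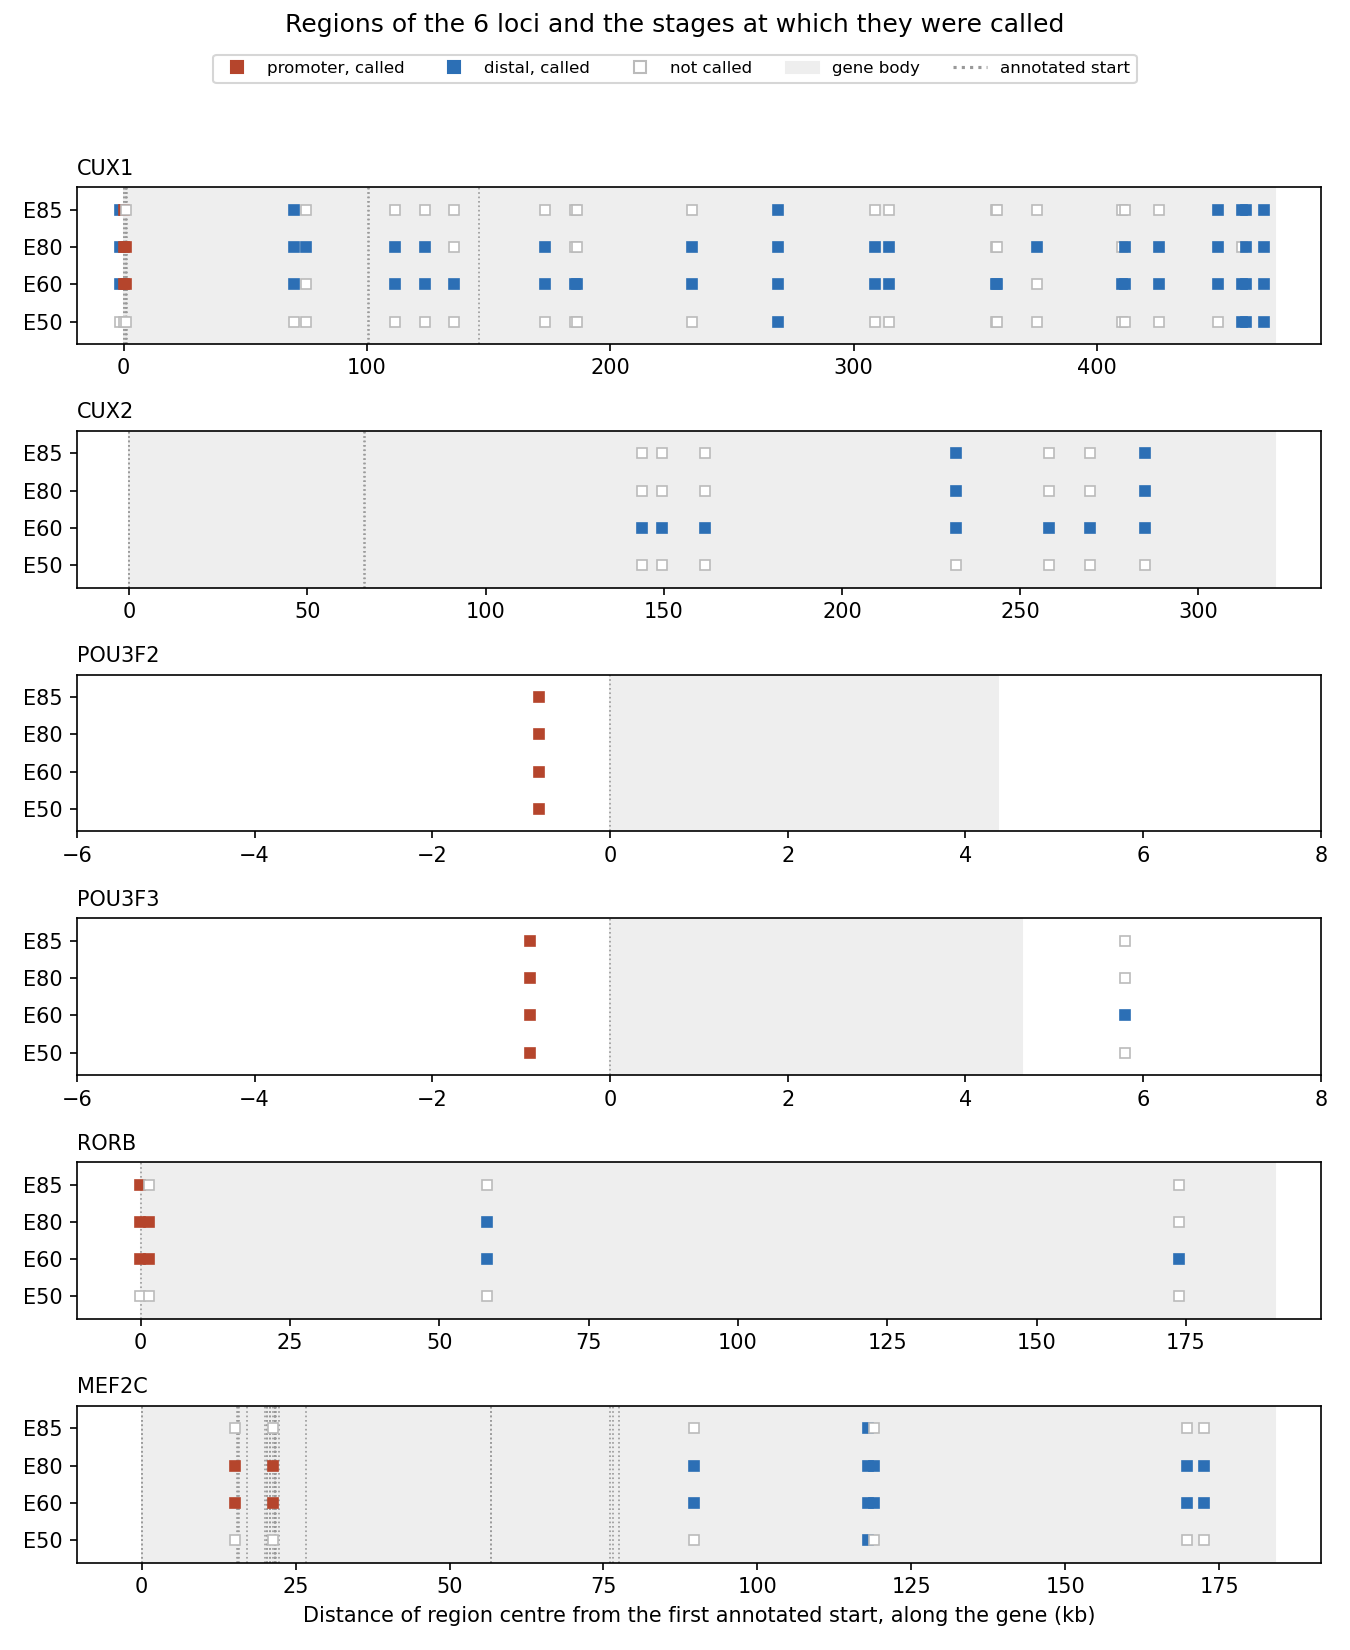
Position of each region's centre along its gene (horizontal axis, kb from the first annotated start in the direction of transcription) and the stages at which it was called (rows), for the 6 loci. Filled squares are calls, open squares are regions not called at that stage, grey areas are gene bodies and dotted lines annotated starts. CUX2 starts have no region near them, the MEF2C promoter calls lie at inner starts, and the POU3F2 and POU3F3 starts lie inside regions called at all 4 stages.

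POU3F2 (NCBI gene 694524, chr4:74445966-74450337, minus strand) is a gene of 1 exon, and 1 wide region covered its start. This region (chr4:74448253-74453946) was 5694 bp wide and was called at all 4 stages, with 3 peaks of E50, 1 of E60, 4 of E80 and 2 of E85 merged in it. Of all regions, 46 (0.0636%) were at least as wide. POU3F3 (NCBI gene 106992419, chr13:8619142-8623780, plus strand), also of 1 exon, had a region of 9517 bp over its start (chr13:8613441-8622957), and 18 of all regions (0.0249%) were at least as wide. It was called at all 4 stages, with 4 peaks of E50, 5 of E60, 7 of E80 and 5 of E85 merged in it, and also covers a start of the lncRNA gene LOC106993104. A further region (chr13:8623762-8626149, 2388 bp) lay 804 bp after the first, overlapped the last bases of POU3F3 and was called at E60 alone. These POU genes were the only members with a promoter called at E50.

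Open chromatin around both POU genes reached well beyond their short loci. Outside the loci, 17 regions had their nearest protein-coding start at POU3F2 and 16 at POU3F3, against 2 for CUX1, 1 for CUX2, 3 for RORB and 3 for MEF2C. The POU3F2 and POU3F3 loci are 9.37 and 9.64 kb long and the others 189 to 478 kb. These counts were not scaled to the stretch assigned to each gene, so they do not compare density. Of the 17 POU3F2 regions, 4 were called at all 4 stages, 4 at E60 and E80 alone, 1 at E80 alone and 5 at E60 alone. Called at all 4 stages were chr4:74455510-74458057, 6.45 kb from the start, chr4:74438825-74440171 at 10.8 kb, chr4:74496234-74497491 at 46.5 kb and chr4:74644358-74645724 at 195.0 kb. Of the 16 POU3F3 regions, 6 were called at all 4 stages, 5 at E60 and E80 alone and 3 at E60 alone. The widest was chr13:8609523-8613244, with 3722 bp, centred 7.76 kb upstream of the POU3F3 start. This region, chr13:8607084-8609427 and chr13:8423659-8425103 counted as promoters, because each lay within 1000 bp of an annotated start other than that of POU3F3. One region, chr13:8548841-8549300, was called at E80 and E85 alone, as were 1.03% of all regions. A nearest start is a matter of position, and whether these regions act on the POU genes was not tested.

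RORB (NCBI gene 703310, chr15:89924843-90114815, plus strand) had 4 regions in 195.0 kb, of which the E50 set held none, the E60 set 4, the E80 set 3 and the E85 set 1. Region 1 (chr15:89924396-89925127, 732 bp) covered the start and was called at E60, E80 and E85. Region 2 (chr15:89925235-89927079, 1845 bp) began 107 bp further on and was called at E60 and E80. Region 3 (chr15:89982607-89983124) in intron 1 was called at E60 and E80, and region 4 (chr15:90098519-90098898) in intron 8 at E60 alone.

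MEF2C (NCBI gene 694992, chr6:85613564-85797689, minus strand) had the same calls at E80 as at E60 in every region, as did the single region of POU3F2. Its 7 regions were all in the E60 and E80 sets, and the E50 and E85 sets held 1 each. The annotation gives MEF2C 26 starts, and the 2 promoter regions lay at inner ones. Region 1 (chr6:85781988-85782896, 909 bp) and region 2 (chr6:85775746-85776743, 998 bp) were called at E60 and E80 alone, 15.2 and 21.4 kb downstream of the first start, from which the nearest region lay 14793 bp away. The 5 distal regions lay 89.7 to 172.5 kb downstream. Region 4 (chr6:85679413-85680028, 616 bp, intron 4, sequence above) was the one called at all 4 stages, while region 5 (chr6:85678340-85679255), 157 bp further along the gene, was called at E60 and E80 alone.

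The promoter calls of the 6 genes can be read together. At E50, 2 of 6 genes had a called promoter, against 44.3% of all protein-coding genes. At E60 and at E80 the number was 5 of 6, against 64.7% and 63.2%, and at E85 it was 4 of 6, against 53.0%. Of the 8 promoter regions, the E50 set held 2, the E60 and E80 sets 8 each and the E85 set 4, where the shares over all promoter regions were 53.7%, 94.2%, 90.1% and 67.7%. A call of all 8 at E60 and E80 was thus near the background.

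E80 and E60, whose peak sets were of similar size (60278 and 61956 peaks), differed in 16 of the 46 regions. Of these, 2 were called at E80 and not E60, and 14 at E60 and not E80, so the E80 share was 12.5% (interval 1.55 to 38.3), against 46.1% over all regions and 47.4% over all distal regions. By gene, the E80-specific and E60-specific numbers were 2 and 7 in CUX1, 0 and 5 in CUX2, 0 and 1 in POU3F3, and 0 and 1 in RORB. MEF2C and POU3F2 had none of either kind. Without CUX1 the numbers were 0 and 7, and among the 9 regions with no lifted peak they were 2 and 3. Lifted peaks were in 0 of the 2 E80-alone and 10 of the 13 E60-alone regions, and in 27.9% and 50.7% of all regions with these patterns. Their part in the share was not tested. Late-only regions, with a call at E80 or E85 but none before, numbered 2, against 13 early-only regions, a share of 13.3% (1.66 to 40.5) where all regions gave 48.3%. All of these are among the 16 regions above, so this share counts the same difference again. The regions of 1 locus share their gene and cells and are not independent, so the intervals are too narrow for a statement about genes.

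The other stage pairs followed the sizes of the peak sets, 19833 peaks at E50 and 30701 at E85. Against E50, 37 regions were specific to E60 and 0 to E50, a share of 100% (90.5 to 100) with 97.4% over all regions. Against E80, 1 region (CUX1 region 23) was called at E85 and not E80 and 19 at E80 and not E85, a share of 5.0% (0.127 to 24.9) with 6.31% over all regions. Both shares were close to the background, and stage and set size cannot be told apart in these pairs.

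Width went with the number of stages in the 6 loci as in the whole set. Each region merges the peaks in it, so peaks of more stages can by themselves make it wider. The part of this merging in the relation was not tested. Regions called at 1 stage had a median of 380 bp in the 6 loci and 307 bp over all regions. At 2 stages the medians were 567 and 429 bp, at 3 stages 585.5 and 564 bp, and at 4 stages 956.5 and 1005 bp. A call at all 4 stages did not require width, since CUX1 region 25 had 423 bp. The median over all 46 was 522.5 bp, against 474 bp over all regions, with a median GC content of 53.4% and 52.2%.

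**Figure D4:**
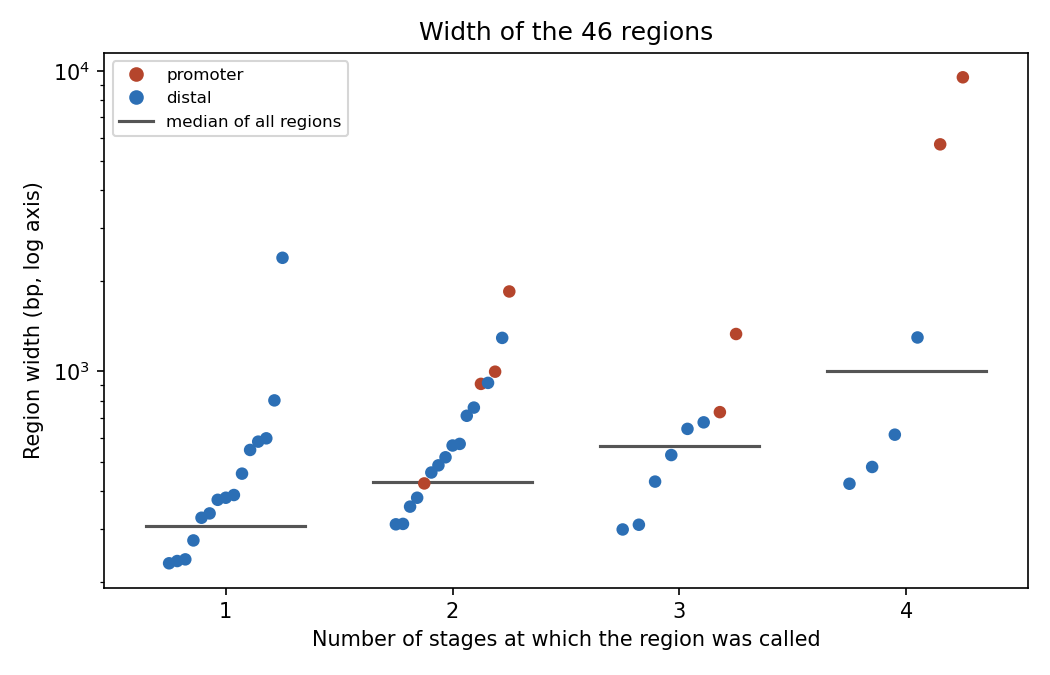
Width of each of the 46 regions (vertical log axis, bp) by the number of stages at which it was called, coloured by promoter or distal, with the median of all regions with a stage peak as a line. The 2 widest points are the POU3F3 and POU3F2 promoter regions, with 9517 and 5694 bp, and the widest region called at 1 stage is the one downstream of POU3F3, with 2388 bp.

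In 5 places neighbouring regions of a locus lay less than 200 bp apart, and in 2 of these both were called at the same stages. CUX1 regions 10 and 11 (138 bp apart) and regions 16 and 17 (148 bp) were all called at E60 alone. In the other 3 pairs, CUX1 regions 2 and 3, RORB regions 1 and 2 and MEF2C regions 4 and 5, 1 region of the pair was called at more stages than the other. For CUX1 and RORB it was the one over the 5′-most start.

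Matches to 14 motifs were counted in the 301 bp around each region's centre, on both strands. The motifs were the POU octamer (ATGCAAAT), MEF2 (by its consensus), CUX (ATCGAT), ROR (TAGGTCA), AP-1 (TGACTCA), TEAD (ACATTCC), homeobox (TAATTA), the E-boxes CAGCTG and CAGATG, RFX (GTTGCCA), SOX (ACAATG), the NFI site (TTGGCA), MEIS (TGACAG) and the CTCF core (AGGGGGC). A match is a run of letters and not a binding site. MEF2 and homeobox letters can overlap, as can AP-1 and CAGATG. Most frequent was MEIS, in 14 of 46 regions (30.4%, interval 17.7 to 45.8, against 18.2% of all regions). MEF2 was in 4 (8.70%, 2.42 to 20.8, against 2.52%): CUX1 regions 6 and 8, CUX2 region 1 and MEF2C region 4. CAGATG was in 10 (21.7%, against 20.2%), the NFI site in 10 (21.7%, against 20.2%), AP-1 in 9 (19.6%, against 21.1%), CAGCTG in 9 (19.6%, against 24.4%), SOX in 8 (17.4%, against 15.1%) and the CTCF core in 7 (15.2%, against 11.5%). Homeobox was in 4 (8.70%, against 8.29%) and RFX in 2 (4.35%, against 5.55%). The POU octamer, CUX, ROR and TEAD motifs were in none of the 46 windows, and in 2.80%, 0.622%, 1.98% and 5.42% of all. The sampling interval of each share at 0 reaches 7.71%. Over whole regions, the POU octamer, CUX, ROR and TEAD were in 3, 2, 2 and 2 of the 46. These shares were 6.52%, 4.35%, 4.35% and 4.35%, against 4.53%, 1.56%, 3.95% and 9.47% of all regions. Both POU3F3 regions, which are much wider than the window, held octamer and ROR letters.

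By stage pattern, the counts are small. AP-1, the site of stress- and growth-responsive FOS and JUN proteins, was in 0 of the 13 regions called at E60 alone, in 5 of the 17 called at E60 and E80 alone, in 3 of the 7 called at E60, E80 and E85 and in 0 of the 6 called at all 4 stages. Over all regions of these patterns the shares were 10.9%, 29.0%, 16% and 11.1%. The E-box CAGATG, a site of neuronal basic helix-loop-helix factors, was in 6 of the 13 E60-alone regions, 0 of the 17, 2 of the 7 and 1 of the 6, against 25.5%, 21.8%, 18.8% and 14.5%. In CUX2 it was in 5 of 7 regions, 4 of which were called at E60 alone. Homeobox letters were in 3 of the 13 E60-alone regions, 0 of the 17, 1 of the 7 and 0 of the 6, against 14.9%, 8.90%, 6.40% and 4.58%.

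MEF2C region 4 held 3 MEF2 matches in its window, beginning at bases 61, 83 and 276 of the sequence above. Of all 72358 regions, 1822 held at least 1, 50 at least 2 (0.0691%) and 2 at least 3 (0.00276%), of which this region is 1. MEF2C is itself a protein that binds this motif. The region was singled out after its values were seen, and whether MEF2C binds there was not tested.

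Lists of related genes were set beside the 6 loci, with E80-specific and E60-specific regions counted the same way. The 6 paralogs POU3F1, POU3F4, RORA, MEF2A, MEF2B and MEF2D had 46 regions, of which 9 were E80-specific and 8 E60-specific (52.9%, 27.8 to 77.0). RORA, a nuclear receptor related to RORB, had 7 E80-specific and 4 E60-specific regions, and of its 26 regions the E50 set held 0, the E60 set 19, the E80 set 22 and the E85 set 3. Without RORA, an alternative chosen after seeing the data, the other 5 paralogs had 2 E80-specific and 4 E60-specific regions (33.3%, 4.33 to 77.7), so the list's share rests largely on that locus. All 6 paralogs had a called promoter at E60, E80 and E85, and 4 at E50. Of 17 other upper-layer genes, among them LHX2, UNC5D and LMO4, the loci held 97 regions, 12 E80-specific and 26 E60-specific (31.6%, 17.5 to 48.7). TLE1, a co-repressor, had 0 late-only and 7 early-only regions and its relative TLE3 0 and 5, while UNC5D, a netrin receptor, had 5 and 2. All 17 promoters were called at E60 and at E80, 12 at E50 and 13 at E85.

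Genes of deep layers had a share near that of the 6 loci. In 11 deep-layer loci, 5 regions were E80-specific and 29 E60-specific of 88 (14.7%, 4.95 to 31.1). NFIB had 0 late-only and 7 early-only regions, FOXP2 0 and 5, SOX5 2 and 5, and FEZF2, a determinant of subcortical projection neurons, 0 and 3. Among marker lists of cell types that the cultures could hold, neuron loci had 7 E80-specific and 20 E60-specific regions (25.9%), interneuron loci 1 and 12 (7.69%) and radial glia loci 3 and 13 (18.8%). Intermediate progenitor loci had 0 and 2, oligodendrocyte lineage loci 1 and 4, endothelial loci 4 and 6, astrocyte loci 2 and 1, and microglial and mural loci none of either kind. Shares below that of all regions thus also occurred in deep-layer, neuron, interneuron and radial glia loci, and the part of cell makeup in the share of the 6 loci was not tested.

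**Figure D5:**
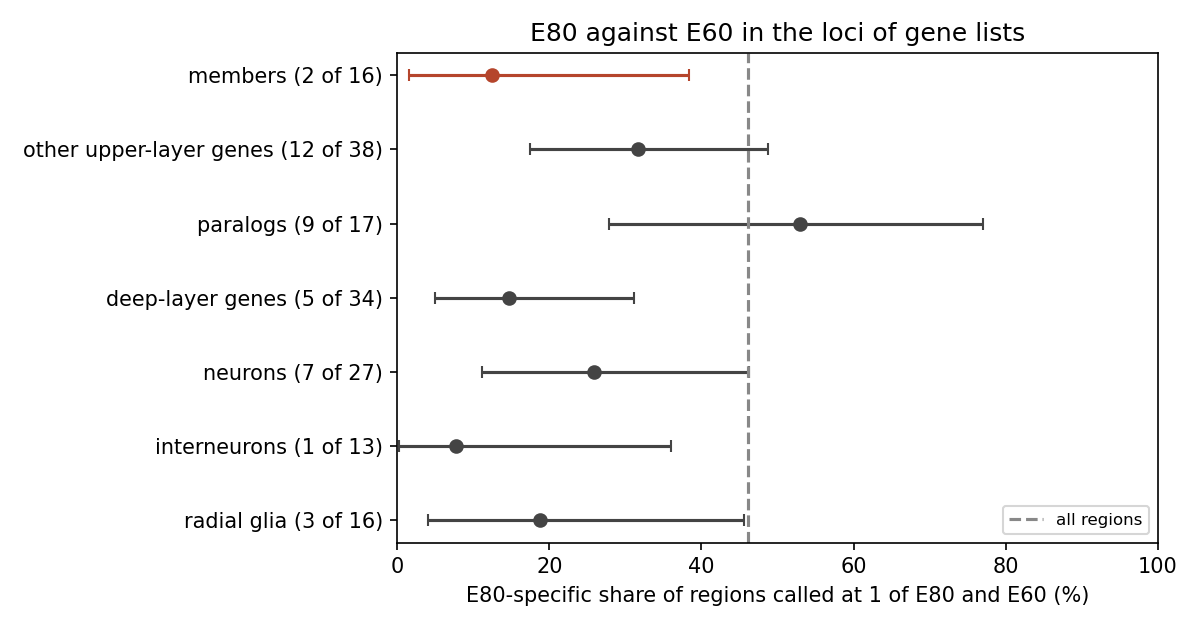
E80-specific share of the regions called at 1 of E80 and E60 (percent, horizontal axis) in the loci of the 6 genes and of 6 gene lists, with exact 95% intervals for counting error. The dashed line is the share over all regions, 46.1%. The point of the 6 genes, at 12.5%, lies left of the line with its interval, as do those of deep-layer genes, interneurons and radial glia, while the paralogs lie at 52.9%, or at 33.3% without RORA (not drawn).

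As a check of the cells, radial glia markers (SOX2, PAX6, HES1, VIM, NES, GLI3) had called promoters in 6 of 6 genes at every stage. Of 7 neuron markers, the E50 set held the promoters of 2, the E60 set of 5, the E80 set of 4 and the E85 set of 2, and NEUROD2 and NEUROD6 had no region in their loci. In the same order of stages, intermediate progenitor markers had 1, 5, 4 and 2 of 5, interneuron markers 2, 5, 5 and 2 of 6, and astrocyte markers 4 of 5 at every stage. Oligodendrocyte lineage markers had 2, 3, 3 and 3 of 5, endothelial markers 0, 3, 2 and 0 of 5, mural and mesenchymal markers 1, 2, 2 and 2 of 5, and microglial markers 0 of 5 at every stage. Promoter calls of all protein-coding genes were likewise most frequent at E60 and E80 (44.3%, 64.7%, 63.2% and 53.0%, as given above), and these small counts were not tested against that background.

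For each member with at least 5 regions, the loci with the most similar shares of regions called at the 4 stages were named, by Euclidean distance between the 4 shares among loci with 0.67 to 1.5 times as many regions. For CUX1 these were SOX5 (distance 0.037, with 4, 19, 15 and 7 of 21 regions called) and TCF4 (0.0574, with 4, 19, 14 and 6 of 20), of 285 loci. For CUX2 they were CNTN1 and EBF1, at 0.121 each and with 0, 5, 1 and 1 of 5 regions, and for MEF2C they were CAMKK1 and MAP4K3, at 0.0337 each and with 1, 6, 6 and 1 of 6 regions, of 1982 loci for both. With 5 to 7 regions many loci take the same few values, so these ties describe the counts alone.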

How the data were processed

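The labels' protocols describe 1 culture per stage and 2 technical bulk ATAC-seq libraries of each, 8 in all. Tools in the submitters' processing notes are cutadapt 4.4, Bowtie2 2.5.1 and SAMtools 1.15, with rheMac10 as the build. For the peak caller, its threshold, any transposase offset and pooling, the answer is not given in the sources used here. In the table of 112696 merged regions that the authors deposited, peak names carry stage codes, and only these codes were used. The table has 8 value columns without names. These, and with them the depth of each library, were not used here. The 40338 regions with lifted peaks alone were left out. File starts count from 0 (8 regions start there), so 1 was added to each; 16325 loci held a region.

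A region counted at a stage with at least 1 of its peaks. Shares have exact Clopper-Pearson intervals. The named genes were the 6 members, paralogs, upper-layer and deep-layer lists (with the genes of most stage-specific regions) and loci of like pattern; TLE4 was not found in the annotation. Some listed items are not reported here, and list counts are without them. The members and lists were chosen with earlier results of these data known. Intron numbers follow the transcript with the longest span. The locus overlap rule and the motif search were tested on made-up regions and sequences. Stage codes and the promoter rule were not part of that check. Python 3.11.15, pandas 2.3.3, NumPy 2.4.6, SciPy 1.17.1, pysam 0.24.0 and matplotlib 3.10.9 were used. Alternatives were other locus, promoter and region definitions and leaving out each gene.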

Additional observations from a re-analysis of the deposited data

How the results depend on the processing

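Of 139 values under alternatives, 118 stayed within 1.5 times the count, or within the interval of the share, given above. All 12 promoter counts did so, as did 43 of 56 region counts, 50 of 56 stage shares and 12 of 14 motif shares. Within that limit, the genes with a called promoter fell from 5 to 4 at E60 and at E80 when only the start of the longest transcript was used. The alternatives kept from 9 to 68 regions, so a region count can stay or move with set size alone. That tally does not test the shares called at each stage. The 21 regions left without CUX1 were called at 14.3%, 100%, 66.7% and 28.6% in order of stage. Without CUX1, which holds 25 of the 46 regions, the E50 set held 3 regions, the E60 set 21, the E80 set 14 and the E85 set 6, and the E80 share against E60, the E85 share against E80 and the late-only share were all 0 (0 of 7, 0 of 8 and 0 of 7 regions). In the 9 regions with no lifted peak, the E50 set held 0, the E60 set 7, the E80 set 6 and the E85 set 1. There the E80 share was 40% (2 against 3 regions) and the E85 share 0 (0 against 5), and the cause was not tested. With the nearest start in place of the locus, 68 regions gave 15 at E50, 50 at E80 and 24 at E85, with an E85 share of 0 (0 against 26 regions). In regions of at most 1 kb 4 were called at E50, and 12 peaks in place of regions were counted there. Over whole regions, where more bases were searched, homeobox letters were in 26.1% and CAGCTG in 39.1%, against 12.7% and 39.0% of all regions. No paired analysis was possible because calls are given by stage and not by library, and for the same reason no library could be left out. With 1 culture a stage, set size limits each comparison except that of E80 with E60. Similar set sizes do not show equal depth, which was not used here, or an equal peak threshold, which is not given. Their part in the E80 and E60 difference was not tested.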

Other observations

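The table also holds regions with lifted peaks of undefined sets and no stage peak, and 31 of these lay in the 6 loci. CUX1 had 18, MEF2C 5, CUX2 3, POU3F2 2, RORB 2 and POU3F3 1. They lay within 1000 bp of an annotated start in 1 case in CUX1 and 1 in MEF2C, and in no case in CUX2. The CUX2 starts were thus without a region of any set. What these sets are was not analysed here.

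Outside the loci, the 42 regions with their nearest protein-coding start at a member gene showed 4 late-only and 11 early-only regions, where 48.3% of such regions were late-only over all regions. No interval was computed for these small counts, so no excess of early-only regions is read from them. The E50 set held 11 (26.2%) of the 42 regions, the E60 set 38 (90.5%), the E80 set 31 (73.8%) and the E85 set 16 (38.1%), against 26.0%, 82.8%, 80.3% and 40.1% of all regions. The shares at E50 and E85 were near the background. In the MEF2C neighbourhood 1 region of 3, chr6:86214229-86214699, was called at E80 alone, and in that of RORB 1 of 3, chr15:89720935-89721264, against none in the loci of both genes.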
